A study of Mus musculus with 4 samples.

Results

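Peaks of H1foo, the linker histone of the egg, and of the antibody AE4, which is used for somatic H1, were located at 41 imprinted mouse genes. The genes were taken from a list of known imprinted loci, and all 41 were found among the 21774 protein-coding genes of the RefSeq table for GRCm38.p6, whose chromosomes have the coordinates of mm10. A peak was counted for a gene if at least 1 bp of it lay inside the gene or within 5 kb of either end, an interval called the window of the gene below. Members on the same chromosome with no more than 1 Mb between neighbours were joined, which gave 17 clusters, 12 with at least 2 members and 5 with 1. No peak value enters the rule, but the members and the lists used below were chosen with earlier results of these data known.

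All 4 libraries came from embryonic stem cells of the mouse strain 129S4/SvJae that overexpress H1foo-GFP, a fusion of mouse H1foo with green fluorescent protein. For H1foo, 2 libraries were made with a rabbit polyclonal antibody prepared in-house, and 2 others with AE4, a mouse monoclonal antibody. Chromatin was cut with an enzyme, and no line without the transgene was analysed here. Whether AE4 also binds H1foo, whether the libraries came from separate cultures and whether the cells are 1 clone is not stated in the labels. The data are 1 peak list per antibody with no value per library. There was therefore no spread between replicates and no test, and every number below is a description of these 2 lists. Read depth is unknown, and peak lists hold no expression with which to check the cell type.

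Genomic imprinting is the expression of a gene from only the maternal or only the paternal chromosome. The parental mark is DNA methylation laid down in the egg or the sperm at control regions, many of which contain the promoter of a long noncoding RNA, and 1 control region can govern a whole cluster. After fertilisation the mark is kept by ZFP57 and ZFP445 with TRIM28 and by the maintenance methyltransferase DNMT1, while other methylation is lost. Linker histones bind the nucleosome with the DNA that enters and leaves it. The peak lists do not separate the parental alleles. Statements on the parental origin of expression are background, often hold in some tissues only, and were not measured in these cells.

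The H1foo list held 97825 peaks and the AE4 list 47493. The authors' score per peak was at least 50 in both lists, on a scale that is not named in the files. Its median was 73.2 over the H1foo list and 63.8 over the AE4 list. Scores are used below to rank peaks within a list.

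Among the 41 imprinted genes, 30 had an H1foo peak, 19 had an AE4 peak, and the peaks were crowded into few clusters. The 9 genes from Igf2 to Phlda2 on chromosome 7 held 49.4% of the H1foo peaks and 43.6% of the AE4 peaks, while the Igf2r cluster on chromosome 17 held none. Over all protein-coding genes, 62.6% had an H1foo peak and 51.0% an AE4 peak. The members were longer than the average gene, with a median length of 38.3 kb against 17.2 kb, and lay in sparser sequence, with a median of 9 genes centred within 0.5 Mb against 15. All genes were therefore sorted into classes by length (10 classes) and by that local gene number (3 classes), and the share of genes with a peak in the class of each member was summed. This background came to 24.6 members for H1foo and 20 for AE4. The observed numbers were thus 30 against 24.6 for H1foo and 19 against 20 for AE4. With scores of at least 75 they were 16 against 16.8 and 8 against 10.3. With scores of at least 100 they were 11 against 11.8 and 5 against 5.53. At neither of these scores did the H1foo count exceed its class sum.

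Both antibodies had peaks at 18 members (46.8% of all genes), H1foo alone at 12 (15.8% of all genes) and neither at 10 (33.2% of all genes). AE4 alone was present at 1 member, Igf2 (4.24% of all genes). The member windows together covered 3450 kb and contained 160 H1foo peaks and 55 AE4 peaks, or 2.91 H1foo peaks for each AE4 peak against 2.06 over the whole lists. Per 100 kb there were 4.64 H1foo peaks and 1.59 AE4 peaks, both below the 6.32 and 2.94 over the windows of all genes. The peak density of the median member was 0.401 H1foo peaks per 10 kb, against 0.388 over all genes, and for AE4 it was 0 against 0.0403. Set beside the median of its own class, the density was higher at 25 members for H1foo and at 17 for AE4. Several of these class medians were 0, so that 1 peak was enough, as at Zrsr1 for both antibodies. The share of all genes above their class median was not computed, so these 2 numbers have no background. Outside the Igf2 to Phlda2 cluster, 23 of 32 members had an H1foo peak (class sum 19.3) and 12 an AE4 peak (class sum 15.9).

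Most of these peaks lay inside the genes, which also make up most of the length of the windows. Of the H1foo peaks 138 touched a member and 22 lay in the flanks only, and for AE4 the numbers were 47 and 8. Densities in genes and flanks were not computed apart, so these counts show no preference for either. Windows of neighbouring genes overlap, so 14 H1foo and 5 AE4 peaks were counted for more than 1 gene. H1foo peaks that overlapped an AE4 peak numbered 28 of 160, which is 17.5% against 24.1% over the list. In the other direction, 27 of 55 AE4 peaks met one of H1foo, which is 49.1% against 51.2%. H1foo peaks at the members had a median score of 66.6 and a median width of 546 bp, against 73.2 and 560 bp over the list. AE4 peaks had 63.3 and 452 bp, against 63.8 and 466 bp. The highest scores at a member were 299.5 for H1foo, exceeded by 1.71% of the list, and 119.3 for AE4, exceeded by 7.97%. The list maxima were 2839 and 1908.

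**Figure D1:**
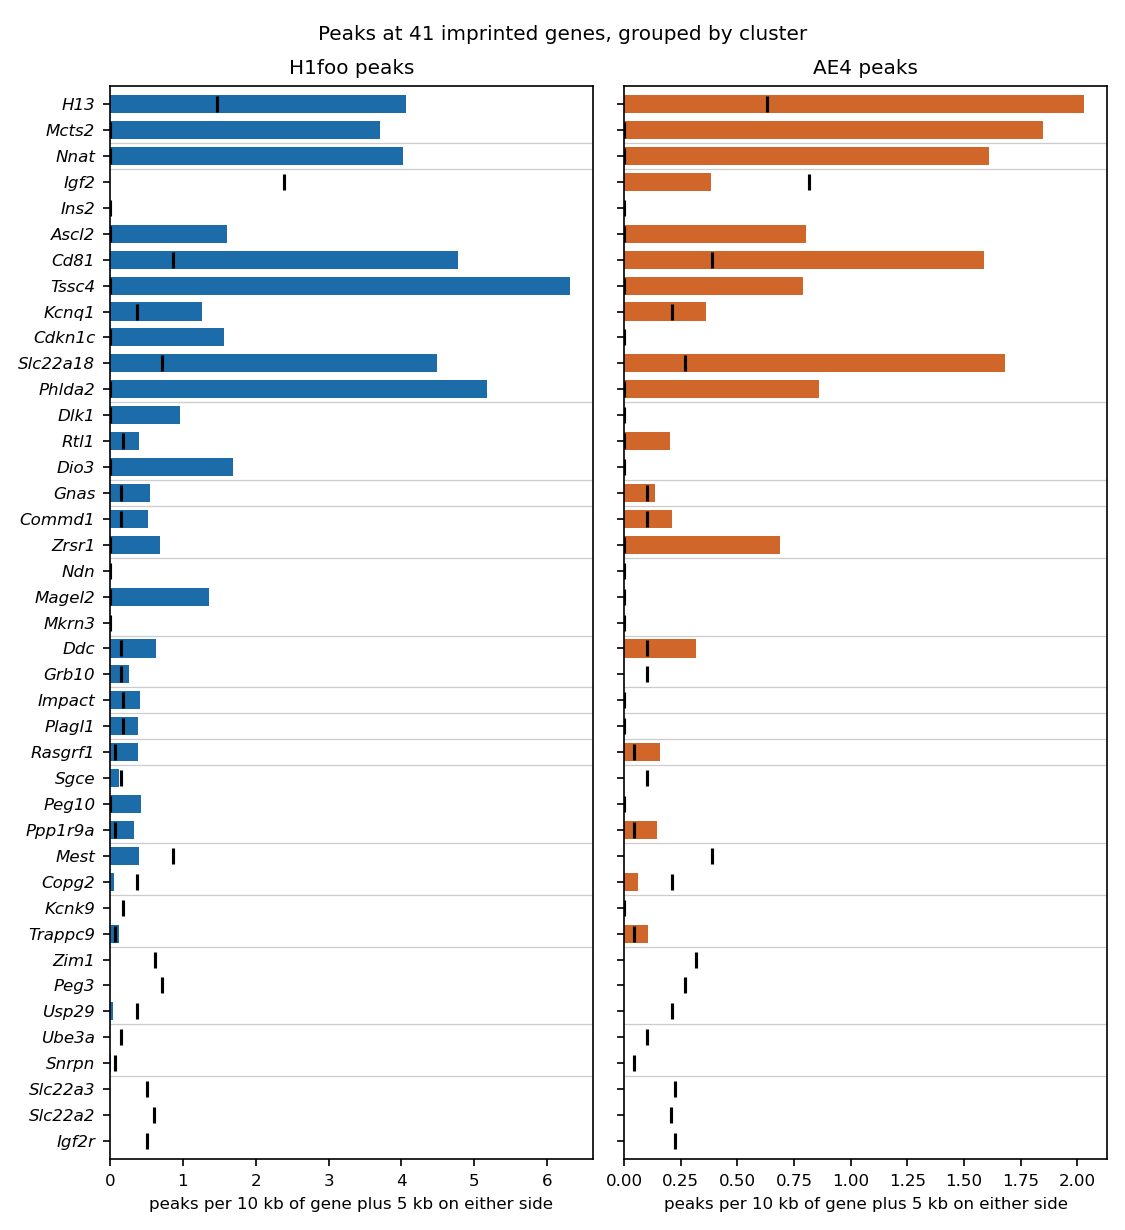
Peaks per 10 kb of window (horizontal axes, peaks per 10 kb) for H1foo (left, blue bars) and AE4 (right, orange bars) at each of the 41 imprinted genes, with grey lines between clusters and a black tick at the median of all genes in the same class of length and gene density. The bars are longest for Tssc4 (6.31 H1foo peaks per 10 kb) and for H13 (2.03 AE4 peaks per 10 kb), and the last rows, Slc22a3, Slc22a2 and Igf2r, have no bar.

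Promoters were examined first, since the methylation that sets imprinting often lies there. RefSeq promoter sequences (GRCm38.p6, 250 bases before to 50 after a start site) matched 32 of the 41 members with 47 windows. The other members are Ins2, Kcnq1, Cdkn1c, Rtl1, Kcnk9, Trappc9, Impact, Sgce and Peg10. An H1foo peak overlapped 4 of the 47 windows, or 8.51%, against 13.5% of all 21263 promoter windows. No AE4 peak overlapped any of them, against 2.36% of all windows. At that share 47 windows are too few to read an absence from. Within 2 kb of the start site the shares were 25.5% of member windows against 32.7% of all windows for H1foo, and 8.51% against 11.5% for AE4. Within 5 kb they were 46.8% against 45.5% for H1foo and 21.3% against 27.0% for AE4.

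The 4 promoters under an H1foo peak are shown to let their base composition be compared, each 5′ to 3′ along its gene with every CG in capitals. They lie at chr7:143473539-143473838 (Slc22a18, plus strand), chr11:11890359-11890658 (Ddc, minus strand), chr12:109452573-109452872 (Dlk1, plus strand) and chr7:143069118-143069417 (Tssc4, plus strand).
Slc22a18: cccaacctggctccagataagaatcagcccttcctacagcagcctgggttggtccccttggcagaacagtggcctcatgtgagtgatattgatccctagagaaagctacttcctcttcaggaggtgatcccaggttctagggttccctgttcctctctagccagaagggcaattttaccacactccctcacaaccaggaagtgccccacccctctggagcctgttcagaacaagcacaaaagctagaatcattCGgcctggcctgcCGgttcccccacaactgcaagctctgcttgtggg
Ddc: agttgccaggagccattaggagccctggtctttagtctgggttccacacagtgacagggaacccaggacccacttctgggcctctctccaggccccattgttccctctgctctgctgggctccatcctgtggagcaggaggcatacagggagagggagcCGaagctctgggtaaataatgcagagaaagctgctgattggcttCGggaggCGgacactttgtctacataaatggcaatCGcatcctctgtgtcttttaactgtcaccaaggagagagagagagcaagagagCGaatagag
Dlk1: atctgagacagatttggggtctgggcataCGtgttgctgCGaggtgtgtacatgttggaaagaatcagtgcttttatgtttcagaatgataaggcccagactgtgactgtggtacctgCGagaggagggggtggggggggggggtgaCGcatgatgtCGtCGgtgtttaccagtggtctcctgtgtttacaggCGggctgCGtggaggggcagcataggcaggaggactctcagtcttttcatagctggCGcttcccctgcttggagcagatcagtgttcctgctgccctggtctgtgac
Tssc4: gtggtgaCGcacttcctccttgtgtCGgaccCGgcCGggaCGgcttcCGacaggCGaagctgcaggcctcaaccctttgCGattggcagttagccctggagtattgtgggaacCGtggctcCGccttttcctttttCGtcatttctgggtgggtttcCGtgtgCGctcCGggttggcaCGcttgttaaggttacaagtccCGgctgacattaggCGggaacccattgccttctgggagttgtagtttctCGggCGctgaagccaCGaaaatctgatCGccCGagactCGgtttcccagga

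The Slc22a18 window has 2 CGs and lay wholly under a peak with a score of 153.7. Of the Ddc window, which has 5 CGs, 70.7% lay under a peak with a score of 58.99. Dlk1 has 9 CGs in its window, and 52.3% of it lay under a peak with a score of 57.67. Tssc4 has 23 CGs, and 30.3% of its window was covered, nearly all of it by a peak with a score of 58.99. Another peak, with a score of 77.21, ends at position 143069118, the first base of the window. The 3 windows with the most bases under a peak thus have between 2 and 9 CGs, below the median of 17 over the member windows, and the CG-rich one was covered least. So few windows cannot show a trend with CG content.

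A second set is formed by genes whose start sites include one with methylation inherited from the egg. The list is textbook knowledge. It holds Kcnq1ot1, Airn, Peg3, Snrpn, Mest, Plagl1, Nnat, Mcts2, Zrsr1, Grb10 and Gnas. They have 20 windows in all, of which several are alternative start sites outside the methylated region, and Kcnq1ot1 and Airn are noncoding and not members. Some windows nearly coincide, those of Mest at start sites 30738050 and 30738053 and those of Gnas at 174327749 and 174327768. None of the 20 windows overlapped a peak of either antibody, where 13.5% of all windows overlapped one of H1foo and 2.36% one of AE4. Within 2 kb of the start site there was an H1foo peak at 5 windows, which is 25% against 32.7% of all windows. The coinciding Mest windows are both among the 5. An AE4 peak lay within 2 kb at 2 windows, which is 10% against 11.5%. For AE4 these numbers are close to the background, and 20 windows are too few to read an absence from. The following 4 are shown because they span the range of distances, from next to a peak (Mest) through 1 to 2 kb away (Kcnq1ot1, Mcts2) to far from any (Peg3). They lie at chr6:30737800-30738099 (Mest, plus strand), chr7:143296498-143296797 (Kcnq1ot1, minus strand), chr2:152686898-152687197 (Mcts2, plus strand) and chr7:6730370-6730669 (Peg3, minus strand).
Mest: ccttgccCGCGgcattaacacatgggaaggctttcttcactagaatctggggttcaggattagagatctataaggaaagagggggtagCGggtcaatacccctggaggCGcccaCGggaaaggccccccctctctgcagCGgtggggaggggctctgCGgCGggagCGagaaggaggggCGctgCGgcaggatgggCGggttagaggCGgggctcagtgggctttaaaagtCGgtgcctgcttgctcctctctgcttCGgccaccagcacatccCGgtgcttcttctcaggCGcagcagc
Kcnq1ot1: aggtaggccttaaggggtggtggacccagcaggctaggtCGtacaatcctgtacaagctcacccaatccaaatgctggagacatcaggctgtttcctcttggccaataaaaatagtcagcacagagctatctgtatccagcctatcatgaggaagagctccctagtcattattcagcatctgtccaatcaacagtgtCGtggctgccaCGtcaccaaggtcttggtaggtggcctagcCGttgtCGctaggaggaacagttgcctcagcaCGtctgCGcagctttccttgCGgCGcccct
Mcts2: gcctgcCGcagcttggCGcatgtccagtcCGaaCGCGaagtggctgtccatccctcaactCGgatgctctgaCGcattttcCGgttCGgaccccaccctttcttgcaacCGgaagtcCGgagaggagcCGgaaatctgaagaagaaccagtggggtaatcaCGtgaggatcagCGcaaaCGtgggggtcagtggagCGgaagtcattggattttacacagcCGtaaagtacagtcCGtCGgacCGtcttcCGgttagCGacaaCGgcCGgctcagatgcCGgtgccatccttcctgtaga
Peg3: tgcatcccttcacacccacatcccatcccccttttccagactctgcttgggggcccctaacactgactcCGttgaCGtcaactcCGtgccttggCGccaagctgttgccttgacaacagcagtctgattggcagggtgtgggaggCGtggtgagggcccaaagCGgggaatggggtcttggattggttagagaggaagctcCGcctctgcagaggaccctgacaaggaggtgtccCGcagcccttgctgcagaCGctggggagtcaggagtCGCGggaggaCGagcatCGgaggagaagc

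The Mest window lay closest to a peak, 174 bp from an H1foo peak with a score of 67.2. For Nnat the distance was 964 bp, for Kcnq1ot1 1269 bp and for Mcts2 1346 bp. At the Mcts2 and Nnat start sites the nearest AE4 peaks were at similar distances, 1411 and 1454 bp. By contrast the window of Plagl1 lay 20934 bp from the nearest H1foo peak and that of Peg3 206248 bp. The hexamer TGCCGC, the core of the ZFP57 binding motif, was searched on both strands. It was in 12 of the 47 member windows, with the coinciding Mest windows counted apart, and in 14.1% of all promoter windows. In the Mest window shown it occurs 2 times and in the Mcts2 window 1 time, and it is not among the letters of the Kcnq1ot1 and Peg3 windows shown.

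The member windows were richer in CG than the average promoter. Their median ratio of observed to expected CG was 0.685 against 0.567. When all windows were ranked by this ratio and divided evenly into a low, a middle and a high class, 9, 23 and 15 member windows fell in them. Over all genes, H1foo peaks lay over 13.5% of windows in the low class, 17.5% in the middle class and 9.49% in the high class. For AE4 the shares were 4.87%, 1.90% and 0.296%. The part of CG content in the member counts was not tested.

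**Figure D2:**
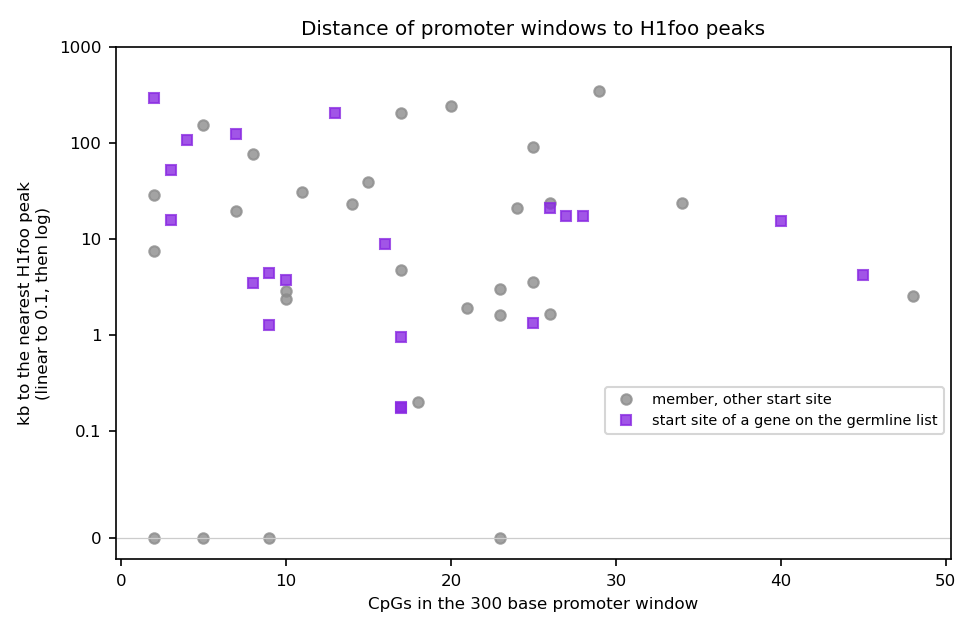
Number of CGs in each promoter window of 300 bases (horizontal axis) against its distance to the nearest H1foo peak in kb (vertical axis, linear to 0.1 kb and logarithmic above), for start sites of genes on the germline methylation list (purple squares, noncoding genes included) and for the other member start sites (grey circles). The 4 points at 0 are the windows under a peak and all are circles; the squares begin at 174 bp with Mest.

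The Igf2 to Phlda2 cluster (chr7:142650768-143503145) joins the neighbouring Igf2 and Kcnq1 imprinted domains. It held 79 of the 160 H1foo peaks and 24 of the 55 AE4 peaks. An H1foo peak was present at 7 of its 9 members against a class sum of 5.35, and an AE4 peak at 7 against 4.13. Igf2 had AE4 alone and Cdkn1c H1foo alone. Over the whole span with its flanks (862.4 kb) there were 13.3 H1foo peaks per 100 kb, against 6.9 and 7.8 in the 1 Mb on either side. AE4 had 4.29 per 100 kb, against 2.0 and 3.2. All 3 other protein-coding genes inside the span had H1foo peaks, so the density was not limited to the listed genes.

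Within this cluster the members differed by their place. Igf2, a fetal growth factor (chr7:142650768-142666816), had no H1foo peak, whereas genes of its class had a median of 2.39 per 10 kb. Its window held 1 AE4 peak at chr7:142650820-142651221 with a score of 65.83. Ins2, an insulin gene, had no peak of either antibody. Ascl2, a transcription factor of the placenta, had 2 H1foo peaks with scores of 69.02 and 66.15 and 1 AE4 peak of 64.14, all in its flanks, or 1.61 H1foo and 0.804 AE4 peaks per 10 kb. Among the 9 members, Igf2 and Ins2 were thus the ones without H1foo.

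Cd81, a tetraspanin of the cell surface (chr7:143052750-143067930), had 12 H1foo peaks (4.77 per 10 kb, class median 0.862) and 4 AE4 peaks. Its neighbour Tssc4, a factor in splicing (chr7:143068416-143071093), had 8 H1foo peaks (6.31 per 10 kb, the highest of the members), and 1 AE4 peak. Most of the 8 were also counted for Cd81, and 3 touched Tssc4 itself. The AE4 peak lay inside Cd81. Of the genes in the class of Tssc4, 99.2% had fewer H1foo peaks per 10 kb. The highest-scoring H1foo peak of all members lay at chr7:143064821-143066823 in the last part of Cd81, upstream of Tssc4, with a score of 299.51 and a width of 2003 bp, and did not overlap an AE4 peak. The highest-scoring AE4 peak, chr7:143057776-143058710 with a score of 119.32, lay inside Cd81 and overlapped an H1foo peak of 107.13.

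Kcnq1, a potassium channel subunit (chr7:143106877-143427050), had the most peaks of any member, 42 of H1foo and 12 of AE4. Spread over its length this was 1.27 H1foo peaks per 10 kb, against a class median of 0.375. The noncoding Kcnq1ot1, which is transcribed from the paternal copy of the control region, lies inside it and divides it into 3 pieces. The 106 kb piece on the Tssc4 side of Kcnq1ot1 held 20 H1foo and 8 AE4 peaks, or 18.8 and 7.53 per 100 kb. The 83.4 kb under Kcnq1ot1 held 5 H1foo peaks, or 5.99 per 100 kb, and no AE4 peak. On the Cdkn1c side 131 kb held 15 and 4, or 11.5 and 3.07 per 100 kb. Peaks were thus densest in the first piece, which also held the highest score in the gene, 292.99 at chr7:143123308-143125288, and sparsest under the noncoding gene.

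Beyond Kcnq1 the density rose again. Cdkn1c, a cyclin-dependent kinase inhibitor that restrains growth, had 2 H1foo peaks in its flank, with scores of 139.97 and 51.34 (1.57 per 10 kb), and no AE4 peak. Slc22a18, a transporter (chr7:143473726-143499334), had 16 H1foo peaks (4.49 per 10 kb, class median 0.718) and 6 AE4 peaks. Phlda2, which limits placental growth (chr7:143501545-143503145), had 6 H1foo peaks in its flanks (5.17 per 10 kb, class median 0) and 1 AE4 peak. Of the 6 peaks, 3 were also counted for Slc22a18.

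**Figure D3:**
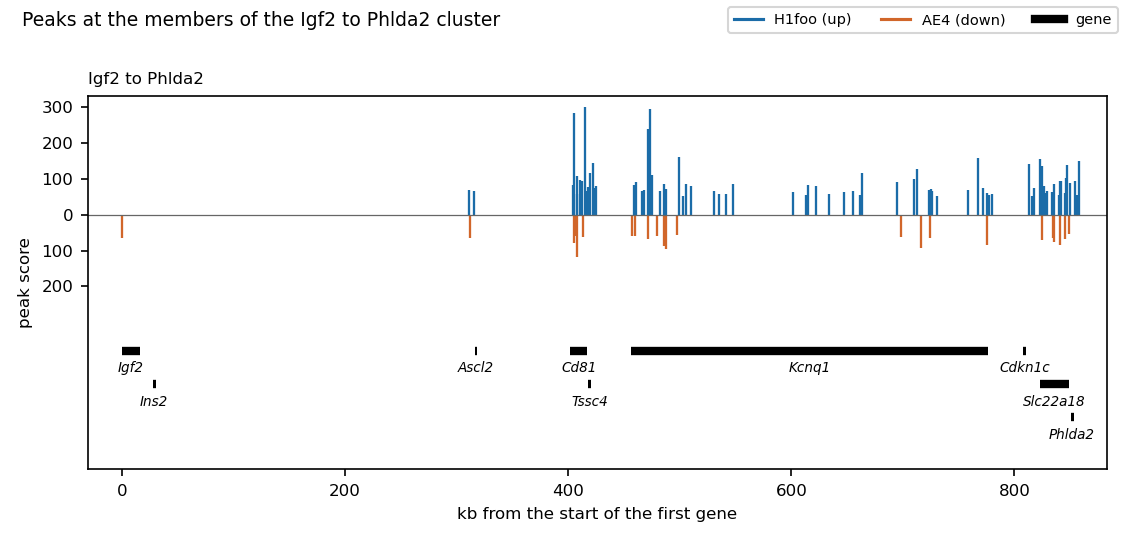
Peaks at the members of the Igf2 to Phlda2 cluster, plotted by distance in kb from the start of Igf2 (horizontal axis) and by the authors' score (vertical axis), with H1foo upward in blue, AE4 downward in orange and genes as black bars. Only peaks in the windows of members are drawn, so gaps between windows are blank. The tallest H1foo lines, 299.51 and 292.99, stand at Cd81 and Tssc4 and at the near end of Kcnq1, and the stretch at Igf2 and Ins2 has a single AE4 line.

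On chromosome 2 the H13 to Mcts2 cluster and Nnat had the highest density of both antibodies among the clusters. H13, a signal peptide peptidase (chr2:152669422-152708668), had 20 H1foo peaks (4.06 per 10 kb, class median 1.47) and 10 AE4 peaks (2.03 per 10 kb, class median 0.629). All 10 AE4 peaks overlapped an H1foo peak. The highest H1foo score was 265.21 at chr2:152704816-152706368, near the far end of H13, and the highest AE4 score 103.56 at chr2:152683716-152684174. Mcts2 (chr2:152687148-152687946) is a paternally expressed retrogene in an intron of H13, and its window held 4 of the H1foo peaks (3.7 per 10 kb) and 2 of the AE4 peaks, none inside the retrogene. Per 100 kb the cluster had 40.6 H1foo peaks, against 17.8 and 24.7 in the 1 Mb on either side, and 20.3 AE4 peaks against 7.3 and 11.3.

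Nnat, a small membrane protein of the nervous system (chr2:157560078-157562525) that lies inside its host gene Blcap, had 5 H1foo peaks with scores from 59.32 to 93.57 (4.02 per 10 kb) and 2 AE4 peaks of 51.09 and 79.91. Its window had 40.2 H1foo peaks per 100 kb, against 28.5 and 19.1 beside it. Gnas, which encodes the stimulatory G protein alpha subunit, had 4 H1foo peaks, the highest at 109.4, and 1 AE4 peak of 54.56. Its 5.52 H1foo peaks per 100 kb lay between the 12.6 and 3.9 on either side. The third gene nested in a host, Zrsr1 in Commd1 on chromosome 11, had 1 H1foo peak of 52.95 and 1 AE4 peak of 67.04, both outside Zrsr1 and inside Commd1. Commd1 had 5 H1foo peaks, the highest at 66.03, and 2 AE4 peaks.

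Of the 10 members without a peak, 5 lay in the Igf2r and Peg3 clusters, where most genes of like length and density had an H1foo peak. Igf2r, which clears the growth factor IGF2 (chr17:12682406-12769706), and the organic cation transporters Slc22a2 and Slc22a3 had no peak of either antibody. In the classes of these genes, 83.6%, 78.4% and 83.6% had an H1foo peak. The nearest H1foo peaks were 21.2 kb from Igf2r, 32.3 kb from Slc22a2 and 141 kb from Slc22a3, and the nearest AE4 peaks were 115, 256 and 111 kb away. Over the 359.7 kb of the span there was 1 H1foo peak (0.278 per 100 kb, against 2.6 and 4.0 on either side) and no AE4 peak, against 1.0 on each side. Inside the body of Airn, the noncoding RNA that silences Igf2r on the paternal chromosome, there was 1 H1foo peak.

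In the Zim1 to Usp29 cluster (chr7:6674444-6967220), the zinc finger genes Zim1 and Peg3 had no peak, and the deubiquitinase gene Usp29 had 1 H1foo peak with a score of 50.48, close to the lowest in the list. The class sums for these 3 genes were 2.32 for H1foo and 2.01 for AE4. At Usp29 the H1foo density was 0.0405 peaks per 10 kb, below the class median of 0.375. The nearest H1foo peak was 240 kb from Zim1 and 206 kb from Peg3, and the nearest AE4 peaks were 283 and 312 kb away. Beside the cluster there were 2.2 and 0.3 H1foo peaks per 100 kb. The gene Kcnk9, a potassium channel on chromosome 15, also had none, with the nearest H1foo peak at 258 kb and the nearest AE4 peak at 170 kb.

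The Prader-Willi and Angelman region of chromosome 7 forms the Ube3a to Snrpn and Ndn to Mkrn3 clusters. Ube3a, a ubiquitin ligase, had no peak within 345 kb for H1foo and 418 kb for AE4. Snrpn, which encodes a splicing protein and spans 467.7 kb in this table, had 1 H1foo peak with a score of 56.88, 16363 bp from the nearest listed start site. Its density of 0.0209 H1foo peaks per 10 kb lay below the class median of 0.0651. Ndn and Mkrn3 had no peak, with H1foo peaks 29.5 and 37.0 kb away and AE4 peaks 14.8 and 84.1 kb away. Magel2, a ubiquitin ligase cofactor between them, had 2 H1foo peaks of 82.5 and 69.21 inside the gene. Flanking sequence was nearly free of peaks too, with 0.2 and 0 H1foo peaks per 100 kb beside Ube3a and Snrpn, and 0.1 and 0 beside Ndn and Mkrn3.

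Between Ube3a and Snrpn, in 662 kb with no protein-coding gene, there were however 16 H1foo and 18 AE4 peaks, 10 of each shared. All lay between positions 59728703 and 59889660. This stretch is part of the noncoding Snhg14 and holds arrays of small nucleolar RNA genes, 204 in the 662 kb. Of the 206 small nucleolar RNA genes in the whole span, 12 touched an H1foo peak and 14 an AE4 peak. Over all 1330 small nucleolar RNA genes of the table, these included, the shares were 5.04% for H1foo and 2.63% for AE4, or 67 and 35 genes. The copies are nearly identical, so the placement of short reads among them is uncertain.

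**Figure D4:**
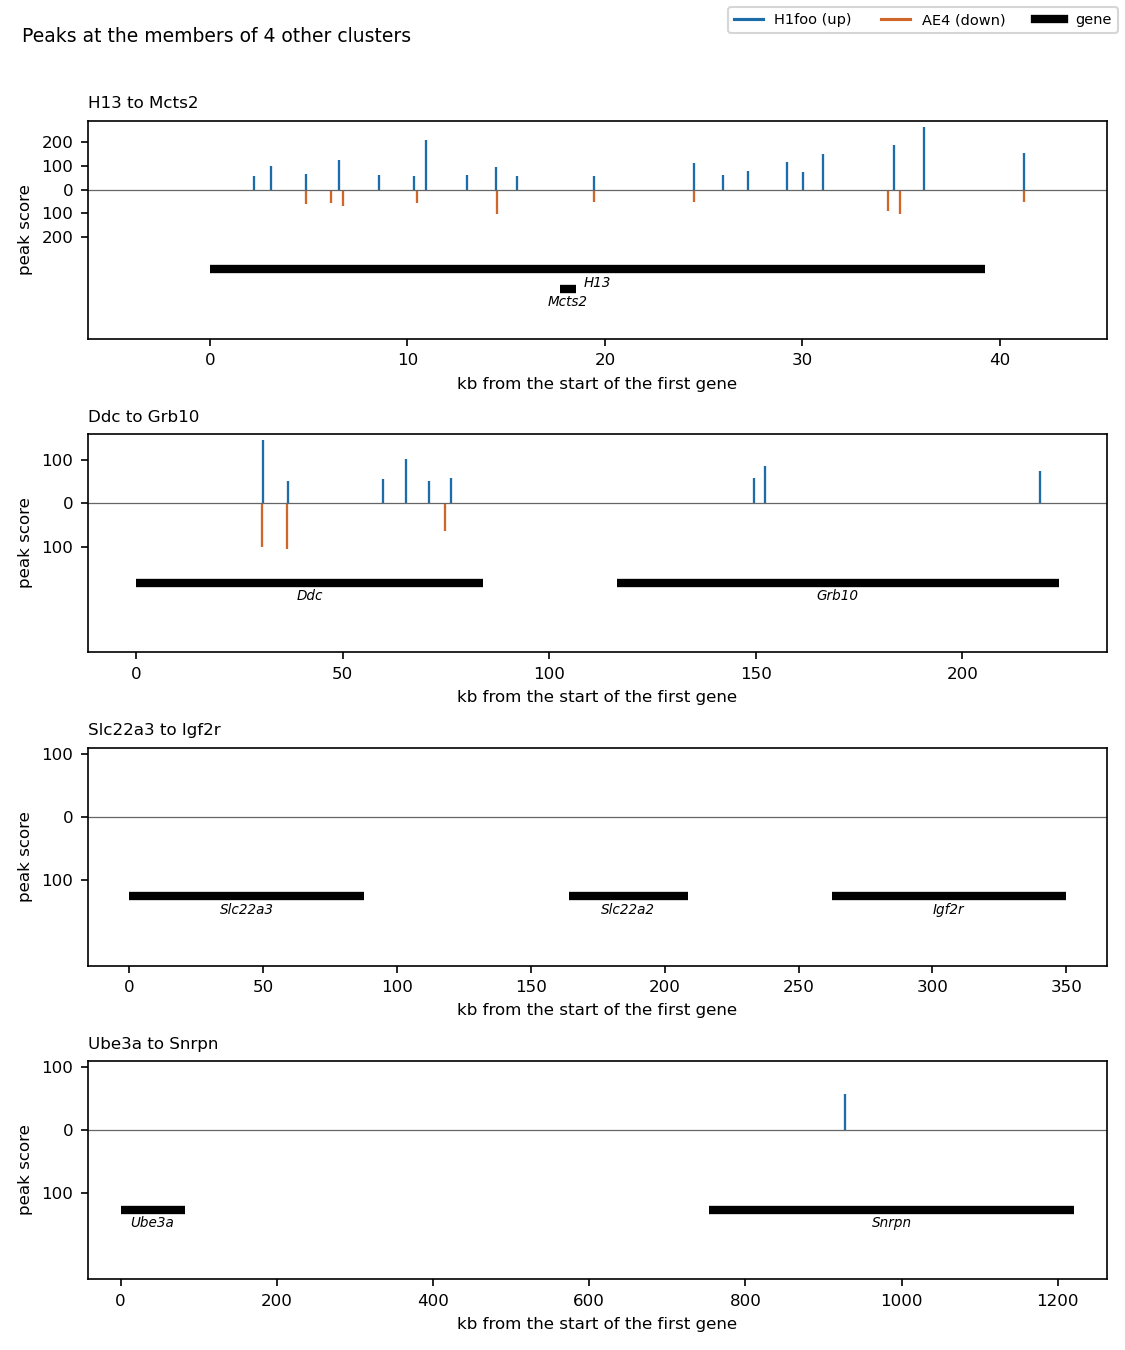
Member peaks of 4 clusters by distance in kb from the start of the first gene (horizontal axes) and by the authors' score (vertical axes), with H1foo upward in blue, AE4 downward in orange and genes as black bars; peaks outside the member windows are not drawn. H13 to Mcts2 is filled from end to end with 20 H1foo and 10 AE4 lines, Ddc to Grb10 has 9 and 3, Slc22a3 to Igf2r has none, and Ube3a to Snrpn has 1 H1foo line.

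The Dlk1 to Dio3 cluster on chromosome 12 had 6 H1foo peaks and 1 AE4 peak in the windows of its genes, and the other peaks of its span lay between them. Dlk1, a Notch ligand homologue, had 2 H1foo peaks of 57.67 and 52.02, the first over its promoter shown above. Rtl1, derived from a retrotransposon, had 2 H1foo peaks of 52.79 and 51.87 and 1 AE4 peak of 61.49. Dio3, which inactivates thyroid hormone (chr12:110279230-110281097), had 2 H1foo peaks of 60.77 and 98.36, both in its flank (1.69 per 10 kb), and no AE4 peak. All 3 genes lay above the median H1foo density of their classes, which was 0 for Dlk1 and Dio3 and 0.185 for Rtl1. Their windows together had 7.3 H1foo peaks per 100 kb. The gap from Dlk1 to Rtl1, which contains the intergenic control region and the start of the noncoding Meg3, held 13 H1foo and 2 AE4 peaks in 91.6 kb. From Rtl1 to Dio3, 665 kb with most of the microRNA genes of the cluster held 18 H1foo and 14 AE4 peaks, with the highest H1foo score at 353.71. Of 61 microRNA genes, Mir127, Mir411 and Mir410 touched an H1foo peak and Mir487b and Mir541 an AE4 peak, where 17.6% and 4.48% of all 1228 microRNA genes did. Over the span there were 4.41 H1foo peaks per 100 kb, fewer than in the gene windows and below the 12.1 and 24.8 on either side.

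Ddc, the aromatic amino acid decarboxylase that makes dopamine and serotonin, had 6 H1foo and 3 AE4 peaks on chromosome 11, and its neighbour Grb10, an adaptor that restrains insulin signalling, had 3 H1foo peaks and no AE4 peak. The peak with the highest score in this cluster, 145.34 at chr11:11844395-11845389 in Ddc, was shared with an AE4 peak of 100.04, and the highest AE4 peak there had 106.68. H1foo density was 4.29 per 100 kb in the span and 0 and 1.0 on either side. On chromosome 6, the maternally expressed Ppp1r9a, a neuronal actin-binding protein, had 9 H1foo and 4 AE4 peaks with none shared, the highest at 102.31 and 104.03. Its paternally expressed neighbours Sgce, a sarcoglycan, and Peg10, a retrotransposon-derived gene of the placenta, had 1 H1foo peak each, of 63.94 and 66.33. Mest and Copg2, a hydrolase and a vesicle coat subunit, had 1 H1foo peak each, and the peak in Copg2, with a score of 108.0, was shared with an AE4 peak of 73.79. H1foo density per 10 kb was below the class median at Mest (0.401 against 0.862), Copg2 (0.0628 against 0.375) and Sgce (0.121 against 0.148). It was above the class median at Ddc, Grb10, Ppp1r9a and Peg10.

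Trappc9, a vesicle transport subunit, had 6 H1foo and 5 AE4 peaks along its length on chromosome 15, none shared, with scores up to 65.89 for H1foo and 59.19 for AE4. Rasgrf1, a Ras exchange factor on chromosome 9, had 5 H1foo peaks, with scores up to 71.78, and 2 AE4 peaks, up to 57.78. The zinc finger gene Plagl1 on chromosome 10 and the translation regulator Impact on chromosome 18 had 2 H1foo peaks each, the highest at 57.81 and 66.49, and no AE4 peak. At these 4 genes the H1foo density was 0.125 (Trappc9) to 0.414 (Impact) peaks per 10 kb, in each case above the median of the class, which was 0.0651 for Trappc9 and Rasgrf1 and 0.185 for Plagl1 and Impact.

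**Figure D5:**
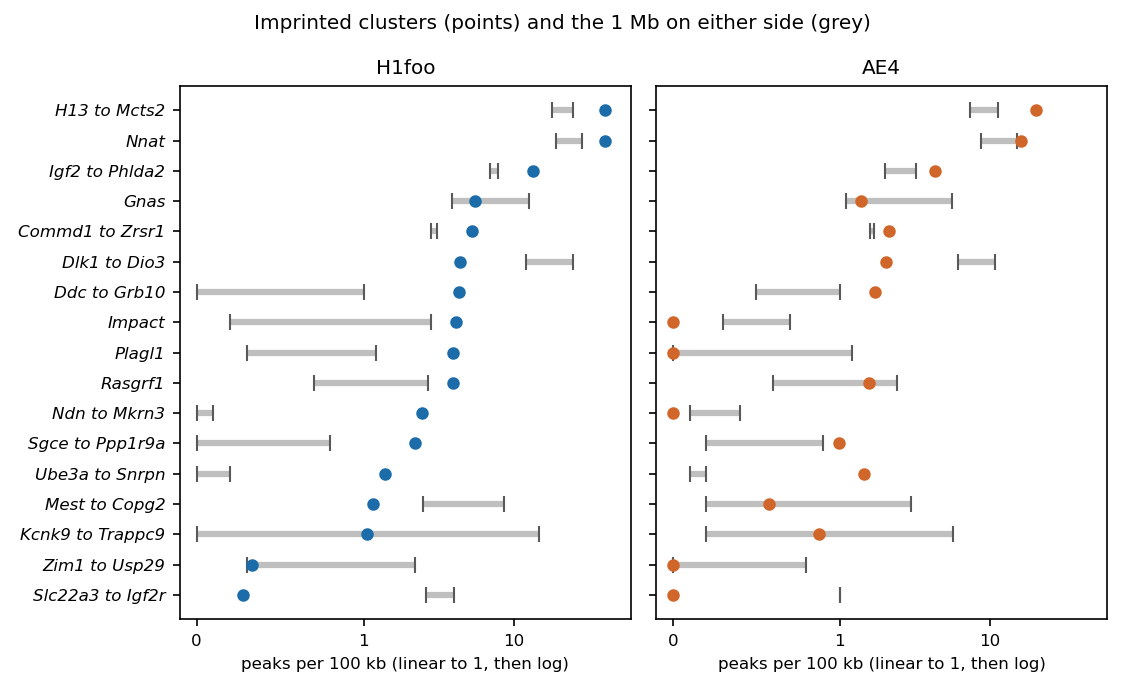
Peaks per 100 kb (horizontal axes, linear to 1 and logarithmic above) over each cluster with its 5 kb flanks (points) and over the 1 Mb on either side (grey ticks joined by a bar), for H1foo (left, blue) and AE4 (right, orange), ordered by H1foo density. For H1foo, 11 of the 17 points lie above both sides, H13 to Mcts2 highest, and 3 lie below both (Dlk1 to Dio3, Slc22a3 to Igf2r and Mest to Copg2). Among the 11, the spans of Plagl1, Impact and Ndn to Mkrn3 hold 2 H1foo peaks each.

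Across the 17 clusters, H1foo peaks were denser in the span than in the 1 Mb on either side at 11 and sparser than on either side at 3. For AE4 the numbers were 7 and 4. Some of the 11 rest on few peaks, with 2 H1foo peaks in each of the spans of Plagl1, Impact and Ndn to Mkrn3. Ube3a to Snrpn stood above both sides for both antibodies. It did so through peaks in its stretch of small nucleolar RNA genes, where read placement is uncertain. Cluster spans begin and end with a gene, while the sequence beside them can hold long stretches without genes, so the comparison is not one of like with like.

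Paternally and maternally expressed members, as textbooks assign them, were counted apart. Of 20 paternally expressed genes, 15 had an H1foo peak against a class sum of 10.1, and 6 had an AE4 peak against 7.73. Of 19 maternally expressed genes, 13 had an H1foo peak against 13.2, and 11 had an AE4 peak against 11.1. Outside the Igf2 to Phlda2 cluster, which holds 7 of the maternally expressed genes, the counts for H1foo were 15 of 18 paternally expressed genes (class sum 9.11) and 6 of 12 maternally expressed genes (8.85). The median there was 0.402 H1foo peaks per 10 kb for the paternally expressed and 0.0314 for the maternally expressed genes. The 2 lists share some peaks. All peaks counted for the paternally expressed Mcts2 and Zrsr1 lie outside these genes, in their maternally expressed hosts H13 and Commd1. Without the flanks, 12 paternally and 10 maternally expressed genes had an H1foo peak, and no class sum was computed for that setting.

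The counts changed with the score. With H1foo peaks of at least 75, 4 of 20 paternally expressed genes (Dio3, Mcts2, Nnat and Magel2) and 10 of 19 maternally expressed genes had a peak, with class sums of 6.57 and 9.38. The peak counted here for Mcts2 lies in H13, which is among the maternally expressed genes. Outside the Igf2 to Phlda2 cluster both lists were below their class sums at this score, with 4 of 18 paternally expressed genes against 5.69 and 4 of 12 maternally expressed genes against 6.2. At scores of at least 100 the counts over all members were 0 and 9, against 4.51 and 6.79. Outside that cluster they were 0 of 18 against 3.75 and 3 of 12 (H13, Ppp1r9a and Copg2) against 4.42. Over all genes 46.6% and 35.6% had a peak at these scores. The highest H1foo score at a paternally expressed gene was 98.36, at Dio3. The paternally expressed genes were thus above their class sum when all peaks were counted and below it at both higher scores, and the maternally expressed genes were above theirs at the higher scores through the Igf2 to Phlda2 cluster. The difference between these lists was not tested, and neighbours within a cluster are not independent.

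Noncoding RNA genes of the clusters differed in length and in peaks. Kcnq1ot1, Airn, Meg3, H19, Peg13 and Rian had H1foo peaks inside (5, 1, 2, 1, 1 and 1) and no AE4 peak. Snhg14 had 17 and 18, all but 1 of the H1foo peaks in the stretch of small RNA genes described above, and Mirg had 2 of each, or 13.8 per 100 kb. Several bodies are short, 2.617 kb for H19 and 4.723 kb for Peg13, so that no AE4 peak in them says little. H19, the maternally expressed RNA beside Igf2, had 2 further H1foo peaks within 5 kb.

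Genes that write, read or keep the imprint were read beside them, from a list of 22 that were all found. Of these, 18 had an H1foo peak (class sum 16.5) and 11 an AE4 peak (14.2). The de novo methyltransferase Dnmt3a had 36 H1foo and 8 AE4 peaks, the maintenance methyltransferase Dnmt1 11 and 5, and its partner Uhrf1 12 and 4. Ehmt2, a histone H3 lysine methyltransferase, had 12 H1foo peaks and no AE4 peak. Zfp57 and Trim28 had 1 H1foo peak each and no AE4 peak. No peak lay at the chromatin remodeller Hells, at Dppa3, which protects the maternal methylation, or at the egg genes Nlrp2 and Nlrp5. Another 29 imprinted genes beyond the 41 were found of 38 listed, and 20 had an H1foo peak (class sum 18.5) and 16 an AE4 peak (15.7). Trpm5 and Tspan32, which lie in the Igf2 to Phlda2 span, had 14 and 11 H1foo peaks with 1 and 5 of AE4. Some of the H1foo peaks at Trpm5 were also counted above for Cd81 and Tssc4. Likewise peaks at Blcap, another of the 29, were counted for Nnat, so these genes are not wholly separate from the members.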

How the data were processed

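ChIP-seq libraries of H1foo and AE4 (2 each) had been aligned with Bowtie 1.1.2 to mm10, per the submitters' processing notes, and MACS had called the peaks, per the file headers. For each antibody the authors deposited a single list of positions with a score per peak, whose scale is not named. The sources used here do not give how libraries were combined, whether an input was used, or the version of MACS. Depth is unknown, so no interval is given.

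Starts were converted to count from 1. Protein-coding genes came from a RefSeq table (GRCm38.p6), with scaffold genes left out. Shared peaks have at least 1 bp in common. The class sum adds, over the members, the share of all genes in 10 length by 3 density classes that hold a peak, in place of a drawn comparison set. It has no p, and no test was made. Every member is named, with peak counts and density for the 10 with the most H1foo peaks per 10 kb and for Igf2, and the highest score in each cluster. The members and lists were chosen with earlier results of these data known. Counting was checked on simulated data. Python 3.11.15, numpy 2.4.6, pandas 2.3.3 and matplotlib 3.10.9 were used. Alternatives were other windows, score minimums, overlap rules, linking distances and classes.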

Additional observations from a re-analysis of the deposited data

How the results depend on the processing

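No paired analysis was possible because the lists hold no value per library, and leaving out a replicate was not possible for the same reason. Of 64 alternative values computed, 47 stayed close to the reported ones and 17 moved. With scores of at least 75, members with an H1foo peak numbered 16, with an AE4 peak 8 and with both 8. There were then 61 H1foo and 16 AE4 peaks, and 4 paternally expressed genes with an H1foo peak. With scores of at least 100 these values were 11, 5, 4, 32, 6 and 0, and 9.38% of the H1foo peaks were shared. The class sums for members with an H1foo peak were 16.8 at the lower score and 11.8 at the higher. For AE4 they were 10.3 and 5.53. Over all genes, 46.6% and 35.6% had an H1foo peak at these scores, and 28.7% and 16.2% an AE4 peak. Without the flanks, 24 members had an H1foo peak, 12 had an AE4 peak and 11 had both. No class sums were computed for that setting. With peaks reduced to 200 bp, 10.6% of the H1foo and 30.9% of the AE4 peaks were shared. The cause of the lower shares was not tested. Flanks of 2 or 10 kb and assignment by peak centre left the counts within 1.5 times the reported ones. Joining within 0.5 or 2 Mb gave 19 or 16 clusters. Classes in quintiles gave class sums of 24.4 and 20.1. Leaving out receptor genes of smell and pheromone sensing, which make up 65.5% of the class of Ins2 and Mcts2, gave 25.3 and 20.4. This last setting, and all settings for the paternally and maternally expressed genes, were added after seeing the data.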
